A study of Mus musculus with 9 samples.

Results

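Immediate early genes were compared between old and young mouse kidneys. The 10 genes were Fos, Fosb, Jun, Junb, Egr1, Atf3, Ier2, Ier3, Dusp1 and Zfp36, and all 10 were measured among 19938 genes. They were taken as a functional group and not by a cut on their values, though earlier results of these data were known. Female wild type mice of mixed FVB/C57BL6 background gave whole kidneys, and the RNA of each mouse was hybridised to its own Affymetrix Mouse Gene 1.0 ST array. There were 5 mice at 96 weeks of age and 4 mice at 14 weeks, and no treatment or engineered allele is named for either age. Kidneys of both ages were perfused with cold buffer under anaesthesia and snap frozen. Values are log2 expression per probe set after robust multi-array averaging (RMA), so that a difference of 1 is a doubling. Each of the 10 genes had 1 probe set with a single gene symbol.

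Immediate early genes are switched on within minutes of a stimulus, without need for new protein synthesis. Growth factors, stress and injury reach them through MAP kinase cascades, which act on promoter-bound factors such as SRF, its ELK partners and CREB. Fos, Fosb, Jun, Junb and Atf3 encode basic leucine zipper (bZIP) proteins that pair into AP-1 and related factors, and Egr1 encodes a zinc finger transcription factor. Ier2 and Ier3 encode small response proteins. Dusp1 and Zfp36 are induced together with the others and end the response, Dusp1 as a phosphatase of p38, JNK and ERK and Zfp36 (tristetraprolin) as a protein that binds AU-rich elements of mRNAs and brings on their decay. In the kidney these genes are known for their fast induction after ischemia and other acute injury.

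The promoters that hold elements for these inputs are shown for Fos and Fosb, as bZIP genes, and for Dusp1 and Zfp36, as the pair that ends the response. RefSeq promoter windows of GRCm38.p6, 250 bases before to 50 bases after the start, were found for 8 of the 10 genes. Printed are the 200 bases before the start, 5′ to 3′ on the strand of the gene, with motif matches in capitals. Fos is from chr12:85473690-85473889 (plus strand), Fosb from chr7:19310046-19310245 (minus strand), Dusp1 from chr17:26508473-26508672 (minus strand) and Zfp36 from chr7:28379229-28379428 (minus strand).
Fos: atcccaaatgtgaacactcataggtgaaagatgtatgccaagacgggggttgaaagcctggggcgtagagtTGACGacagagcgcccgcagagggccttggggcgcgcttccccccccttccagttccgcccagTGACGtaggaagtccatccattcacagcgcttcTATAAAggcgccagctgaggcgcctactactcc
Fosb: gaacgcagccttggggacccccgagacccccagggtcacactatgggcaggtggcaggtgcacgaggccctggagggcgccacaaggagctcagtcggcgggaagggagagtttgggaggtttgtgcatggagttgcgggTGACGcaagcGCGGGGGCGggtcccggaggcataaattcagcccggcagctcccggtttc
Dusp1: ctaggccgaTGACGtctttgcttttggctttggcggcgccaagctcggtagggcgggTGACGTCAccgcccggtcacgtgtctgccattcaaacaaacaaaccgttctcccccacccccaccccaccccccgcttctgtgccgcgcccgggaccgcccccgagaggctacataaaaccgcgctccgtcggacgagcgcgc
Zfp36: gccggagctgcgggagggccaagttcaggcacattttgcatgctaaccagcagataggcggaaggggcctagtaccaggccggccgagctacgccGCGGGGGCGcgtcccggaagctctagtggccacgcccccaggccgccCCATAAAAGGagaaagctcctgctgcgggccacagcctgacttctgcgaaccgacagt

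Capitals mark the cyclic AMP response element (CRE) TGACGTCA and its shorter core TGACG, the EGR site GCGGGGGCG, the TATA box TATAAA and the CArG box bound by SRF. Both strands were searched over the whole 300-base windows, and a CRE holds the core as part of it. The full CRE was found in 1 of the 8 promoters, that of Dusp1, 143 bases before the start, where a separate core lies 191 bases before the start. The Fos promoter held the core 129 and 66 bases before the start and a TATA box 33 bases before it. The Fosb promoter held the core 60 bases and an EGR site 50 bases before the start. The annotated Fosb gene reaches to chr7:19310118, beyond the start used here, so both matches lie inside the gene as annotated. Zfp36 held an EGR site 105 bases and a CArG box 58 bases before the start. The core was found in 5 of the 8 promoters (20.8% of 32851 promoters of the same length), the others being Junb and Atf3. The EGR site was found in 2 (2.91% of all promoters), the TATA box in 2, Fos and Junb (13.6%), and the CArG box in 1 (1.63%). In Junb the letters TATAAA begin at the start itself (position 1), and not before it as in Fos. The full CRE was in 1.79% of all promoters. The AP-1 site TGANTCA was in 7.81% of all promoters and in 0 of the 8, and the windows of Jun and Ier3 held no match to any of these motifs. A match says only that these letters are present.

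Of the 10 genes, only Zfp36 differed between the ages at an adjusted p under 0.05 in limma, and it was lower at 96 weeks. Zfp36 separated the ages completely, while the other 9 genes overlapped. The bZIP genes Fos, Jun and Atf3 and the zinc finger gene Egr1 had higher means at 96 weeks that did not pass, and 1 old kidney, replicate 3, had the highest value of all 9 kidneys for each of these 4. Among all 19938 genes 6.72% passed, 4.31% higher and 2.4% lower at 96 weeks, and the groups did not overlap for 13.3%. Thus 1 of 10 genes called and 1 of 10 without overlap was close to these shares. With the thresholds of the methods (a difference of 1.5-fold or more, and p under 0.05 before adjustment) 0 of the 10 genes passed in limma, against 1.6% of all genes. At an unadjusted p under 0.05 alone there were 2, Zfp36 and Ier3, against 28.5% of all genes. The median log2 fold change was 0.09 over the 10 genes and -0.03 over all genes, and 6 of the 10 were above 0.

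**Figure D1:**
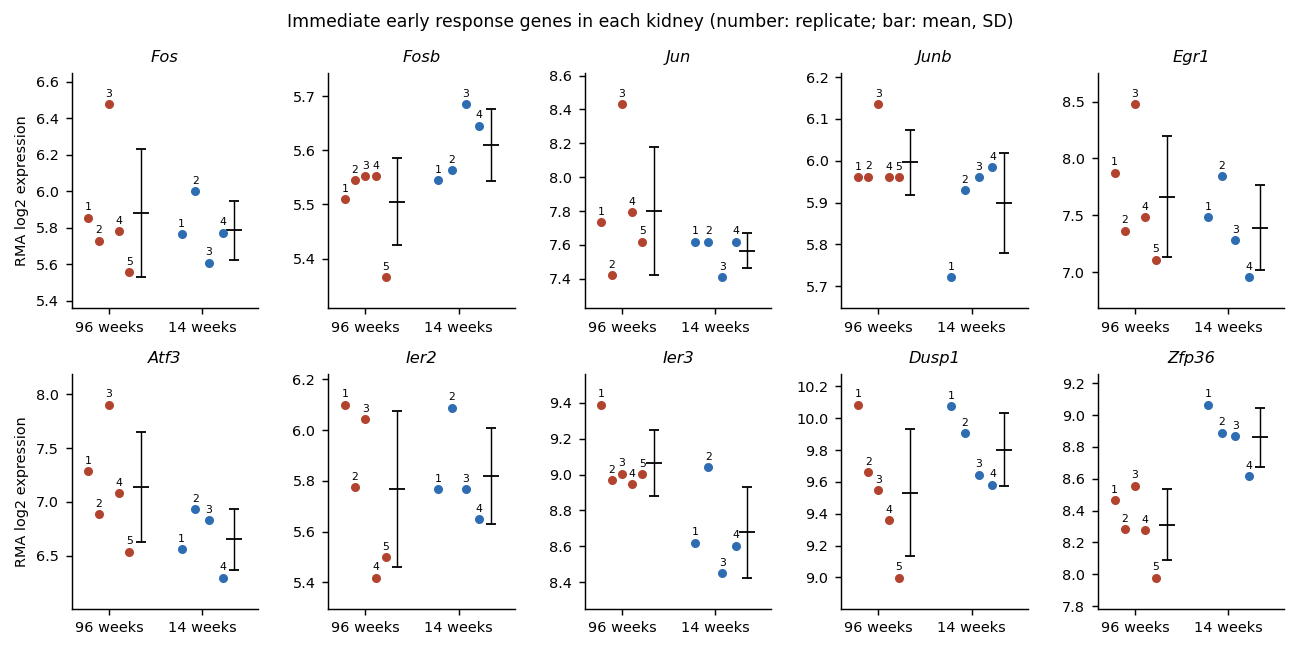
RMA log2 expression of the 10 immediate early genes in each kidney, 96 weeks (red, 5 mice) and 14 weeks (blue, 4 mice), with the replicate number at each point and the mean with SD to the right of each group. Each panel has its own vertical scale. The 5 old kidneys lie below all 4 young kidneys for Zfp36, and replicate 3 at 96 weeks is the highest of all 9 kidneys for Fos, Jun, Egr1 and Atf3.

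Zfp36 had log2 values of 8.47, 8.28, 8.56, 8.28 and 7.98 in the 96 week old kidneys, against 9.07, 8.89, 8.87 and 8.62 in the 14 week old kidneys. The highest old kidney was just below the lowest young kidney. The mean was 8.31 ± 0.22 at 96 weeks (SD, n = 5) and 8.86 ± 0.19 at 14 weeks (SD, n = 4). Zfp36 fell by 0.55 on the log2 scale (95% interval -0.82 to -0.28), a 1.46-fold difference, with an adjusted p of 0.029 in limma. Among the 126 ways to split the 9 arrays, an exact permutation test (two-sided) gave Zfp36 p = 0.016, where 0.0079 is the smallest p possible. In a whole organ, fewer cells of a type and less RNA per cell cannot be told apart. The call was lost (limma, adjusted p) without replicate 1 (0.074), 2 (0.067) or 3 (0.068) at 14 weeks, and without replicate 2 (0.060) or 4 (0.051) at 96 weeks. The log2 fold change without each of these 5 arrays was between -0.48 and -0.54, and the methods' t-test gave an adjusted p of 0.093.

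Dusp1, the phosphatase, also had a lower mean at 96 weeks, but the ages overlapped widely. Its log2 values were 10.09, 9.66, 9.55, 9.36 and 8.999 in the old kidneys, against 10.08, 9.91, 9.65 and 9.58 in the young ones. Replicate 1 at 96 weeks was level with the highest young kidney, and replicates 3, 4 and 5 were below all young kidneys. The difference on the log2 scale was -0.27 (95% interval -0.69 to 0.15; adjusted p = 0.35 in limma; exact permutation p = 0.26). The SD was 0.40 at 96 weeks and 0.23 at 14 weeks.

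Fos, the defining AP-1 subunit, had log2 values of 5.86, 5.73, 6.48, 5.78 and 5.56 at 96 weeks, against 5.76, 6.001, 5.61 and 5.77 at 14 weeks. Apart from replicate 3, the old kidneys lay within or just below the range of the young ones. Fos had a log2 fold change of 0.09 (95% interval -0.27 to 0.45; adjusted p = 0.72 in limma; exact permutation p = 0.78), and it was -0.056 without replicate 3 at 96 weeks.

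Jun, the partner of Fos in AP-1, had log2 values of 7.74, 7.42, 8.43, 7.79 and 7.62 at 96 weeks, against 7.62, 7.62, 7.41 and 7.62 at 14 weeks. Its SD was 3.6 times as large in old as in young kidneys, against a median ratio of 1.18 over all genes, and 1.55 times with replicate 3 omitted (median 1.15). The ages differed by 0.23 on the log2 scale (95% interval -0.14 to 0.61; adjusted p = 0.36 in limma; exact permutation p = 0.29) and 0.08 without replicate 3 at 96 weeks. The same Jun value to the last printed decimal stood on 4 arrays, 1 of them at 96 weeks. Such repeats were common, since 57.3% of all genes and 5 of the 10 held an identical value on at least 2 arrays.

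Atf3, a bZIP factor of the stress response, had the largest difference among the bZIP members of the 10. Its log2 values were 7.29, 6.89, 7.90, 7.08 and 6.54 at 96 weeks, against 6.56, 6.93, 6.83 and 6.30 at 14 weeks. Replicates 1, 3 and 4 at 96 weeks were above all young kidneys, and replicate 5 was within their range. Its log2 fold change was 0.48 (95% interval -0.05 to 1.02; adjusted p = 0.21 in limma; exact permutation p = 0.13) and 0.29 without replicate 3 at 96 weeks.

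Egr1, whose product binds GC-rich sites, had log2 values of 7.88, 7.37, 8.48, 7.48 and 7.11 at 96 weeks, against 7.48, 7.85, 7.29 and 6.96 at 14 weeks. Only replicates 1 and 3 at 96 weeks were above the highest young kidney. For Egr1 the log2 fold change was 0.27 (95% interval -0.31 to 0.85; adjusted p = 0.51 in limma; exact permutation p = 0.42) and 0.07 without replicate 3 at 96 weeks. The intervals of Egr1 and Atf3 were the widest of the 10. Differences of more than 1.5-fold lay within both, and also within those of Zfp36, Dusp1, Ier3 and Jun.

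The remaining bZIP members moved little. Fosb, a close relative of Fos, had log2 values of 5.51, 5.55, 5.55, 5.55 and 5.37 at 96 weeks, against 5.54, 5.56, 5.69 and 5.65 at 14 weeks. Its mean was below the 30th percentile of all genes (5.56), so that it was the only one of the 10 that a filter on dim genes removed. Ier2 (5.79), Fos (5.84) and Junb (5.95) had the next lowest means, not far above that cut. For these dim genes a small difference cannot be read as a lack of change. The log2 fold change of Fosb was -0.10 (95% interval -0.23 to 0.02; adjusted p = 0.25 in limma; exact permutation p = 0.071). Junb, which can stand in for Jun in AP-1, had log2 values of 5.96, 5.96, 6.13, 5.96 and 5.96 at 96 weeks, against 5.72, 5.93, 5.96 and 5.98 at 14 weeks. Replicate 3 was again the highest of all kidneys, and an identical value stood on 4 arrays. The log2 fold change of Junb was 0.10 (95% interval -0.05 to 0.25; adjusted p = 0.35 in limma; exact permutation p = 0.19).

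Of the small response genes, Ier3 came closest to a call. Ier3, an early gene with a role in cell survival, had log2 values of 9.39, 8.97, 9.005, 8.94 and 9.002 at 96 weeks, against 8.62, 9.04, 8.45 and 8.60 at 14 weeks. The ages overlapped only through replicate 2 at 14 weeks. The log2 fold change was 0.38 (95% interval 0.10 to 0.66; adjusted p = 0.091 in limma; exact permutation p = 0.048), with means of 9.06 ± 0.18 at 96 weeks (SD, n = 5) and 8.68 ± 0.25 at 14 weeks (SD, n = 4). Without replicate 2 at 14 weeks it was 0.50 and passed (adjusted p = 0.037 in limma). Over the 19 alternatives tried the adjusted p of Ier3 in limma or the methods' t-test was between 0.037 and 0.19, and this was the only one that passed. Ier2 had log2 values of 6.10, 5.78, 6.04, 5.42 and 5.50 at 96 weeks, against 5.77, 6.09, 5.77 and 5.65 at 14 weeks. Old kidneys lay above, within and below the young range, and the log2 fold change was -0.05 (95% interval -0.39 to 0.28; adjusted p = 0.84 in limma; exact permutation p = 0.82).

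**Figure D2:**
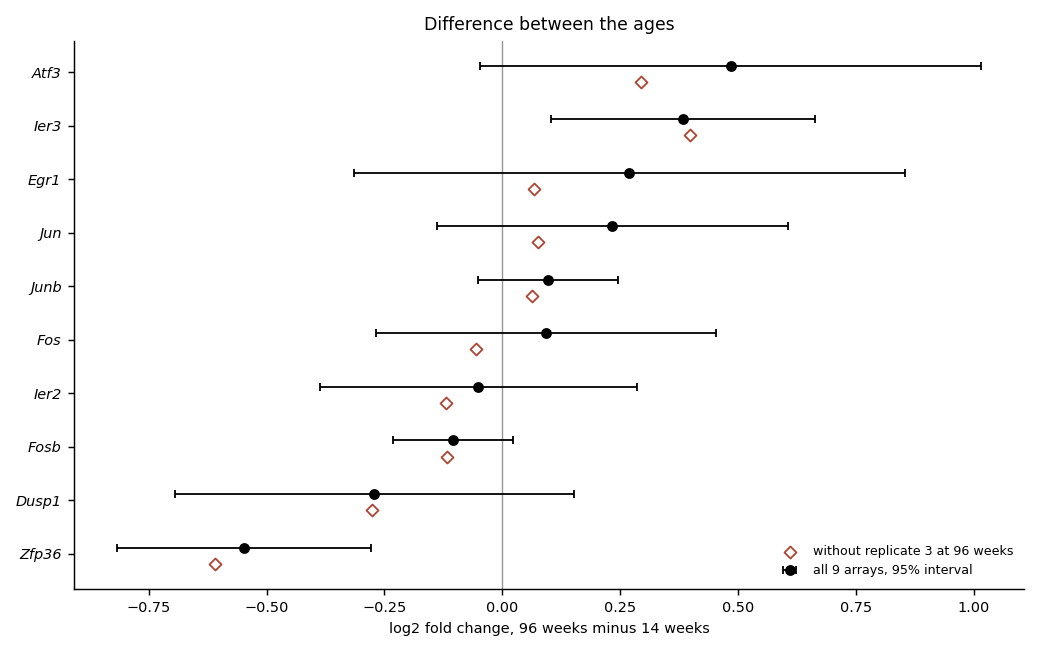
Log2 fold change, 96 weeks minus 14 weeks, of the 10 immediate early genes (black points, bars the 95% interval from limma over 9 arrays) and the value without replicate 3 at 96 weeks (open diamonds). The interval excludes 0 for Zfp36 (-0.55) and Ier3 (0.38), and leaving out the kidney brings Fos to -0.056, Egr1 to 0.07 and Jun to 0.08.

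For each of the 10 genes the highest and the lowest old kidney differed by more than the means of the ages did. Replicate 3 at 96 weeks was the highest of all 9 kidneys for 5 genes, Fos, Jun, Junb, Egr1 and Atf3, and the highest old kidney for 7, 1 of them Fosb, where replicate 4 held the identical value. Averaged over the 10 genes, it lay 0.35 above the mean of its age group on the log2 scale. Replicate 1 at 96 weeks lay 0.16 above, and replicates 2, 4 and 5 lay at -0.11, -0.10 and -0.30. The spread was smaller in the young kidneys, with mean deviations of 0.02, 0.17, -0.06 and -0.13 for replicates 1 to 4. Replicate 1 at 96 weeks had the highest Dusp1, Ier2 and Ier3 of all kidneys, and its Egr1 and Atf3 values were also above every young kidney. The SD at 96 weeks was larger than at 14 weeks for 8 of the 10 genes, and smaller for Ier3 (ratio 0.727) and Junb (0.645). The median ratio over all genes was 1.18, so that most genes had a larger SD at 96 weeks. Fosb (1.21) and Zfp36 (1.2) were near that median, while Jun (3.6), Fos (2.18) and Atf3 (1.79) were further above it. All young kidneys but replicate 3 held an identical Jun value, so that the Jun ratio rests on repeated values. With replicate 3 at 96 weeks omitted, the SD at 96 weeks was larger for 6 genes (median ratio 1.15 over all genes). The ratio was then 1.55 for Jun, 0.789 for Fos, 0.856 for Egr1 (1.43 with it) and 2.01 for Dusp1 (1.74 with it). The SD of Atf3 was then 0.32 at 96 weeks and 0.28 at 14 weeks. The Junb ratio was then 0.0049, since the other 4 old kidneys held nearly the same value.

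**Figure D3:**
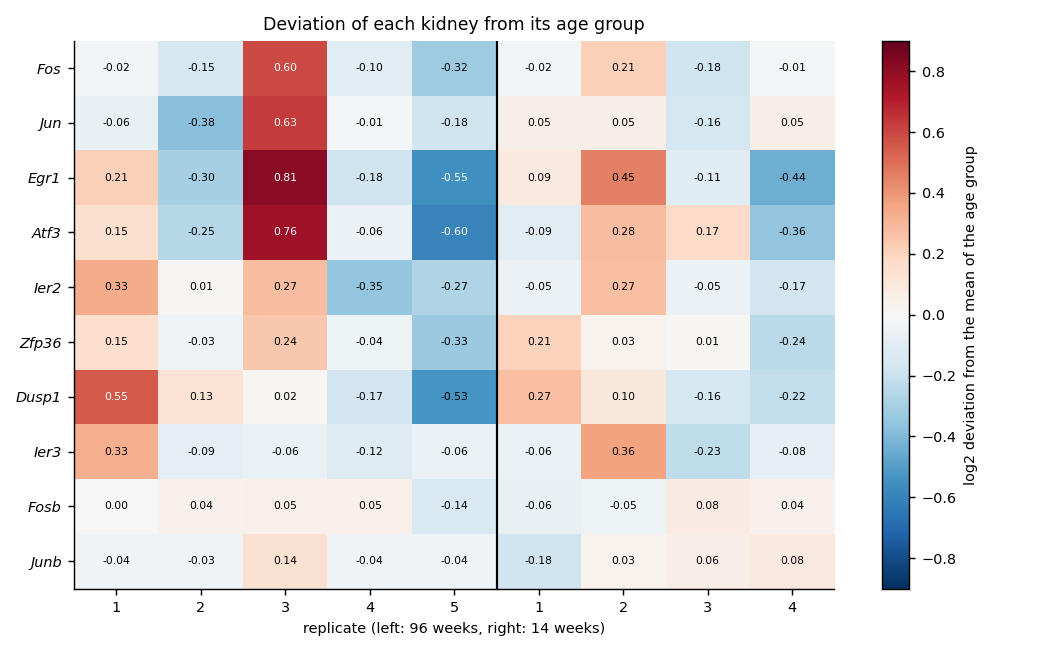
Deviation of each kidney from the mean of its own age group, on the log2 scale, for the 10 immediate early genes (rows) and 9 kidneys (columns, 96 weeks left of the line, 14 weeks right of it). Replicate 3 at 96 weeks stands out for Fos (0.60), Jun (0.63), Egr1 (0.81) and Atf3 (0.76), and replicate 1 at 96 weeks for Dusp1 (0.55).

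Deviations from the age means ran together for most pairs of the immediate early genes. As a description over 9 kidneys, each of which gave the values of all genes from 1 array, 41 of the 45 pairs of genes had a Pearson r above 0, with a median of 0.469, and 12 pairs had an r over 0.7. Egr1 and Atf3 stood at 0.94, Fos and Jun at 0.90 and Fos and Egr1 at 0.89. Zfp36 followed both Egr1 (0.84) and Dusp1 (0.78). Part of this rested on replicate 3 at 96 weeks, without which r was 0.51 for Fos and Jun and 0.33 for Jun and Egr1 (0.76 with it). Without that kidney r remained 0.87 for Egr1 and Atf3, 0.77 for Fos and Egr1, 0.80 for Egr1 and Zfp36 and 0.89 for Dusp1 and Zfp36, and Fos and Ier3 stood at 0.82 (0.28 with it). The median over all pairs was then 0.43, and 11 pairs had an r over 0.7. Pairs of other genes were not correlated, so these values have no reference share. Whether the immediate early genes ran together more than other genes was not tested.

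The genes outside the 10 whose deviations were most like the mean deviation of the 10 were Map1lc3b (r = 0.969 over 9 kidneys), Snora73a (0.966), Rnf213 (0.963), Ubxn10 (0.958), Ccdc71 (0.955), Arrdc4 (0.948), Gadd45a (0.944), Dnase2b (0.938), Lce1i (0.927) and Carhsp1 (0.925). Map1lc3b encodes an LC3 protein of autophagosome membranes, Gadd45a a stress-induced growth arrest protein and Arrdc4 an arrestin-related protein. Leaving out the kidneys farthest from the centre, replicates 3 and 5 at 96 weeks, gave an r between 0.749 (Lce1i) and 0.949 (Gadd45a) for these genes. They were picked by r over the same arrays, so a high r on fewer of these arrays adds no support. Across all genes 19 had an r over 0.9 and 21 an r under -0.9. How many such values chance gives among so many genes on 9 arrays was not tested. Of these 10 genes Map1lc3b also had a higher mean at 96 weeks (log2 fold change 0.34, adjusted p = 0.017 in limma).

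The mean of the tubular injury markers was highest in the same old kidney, replicate 3. For Havcr1, the gene of Kim1 on injured proximal tubules, log2 values were 6.40, 6.40, 9.47, 7.25 and 6.60 at 96 weeks, against 5.67, 5.71, 5.64 and 5.95 at 14 weeks. Vcam1, an adhesion molecule, had 7.63, 7.29, 9.27, 8.53 and 7.198 at 96 weeks, against 6.99, 7.10, 7.08 and 6.69 at 14 weeks. Both, named after their values were seen, were highest in replicate 3, as was Lcn2, the gene of Ngal (9.68). Of 6 injury markers measured, 0 passed in limma (4 at an unadjusted p under 0.05, against 28.5% of all genes). The ages did not overlap for 4 of the 6, against 13.3% of all genes. They overlapped for Krt20 (log2 fold change 0.25, adjusted p = 0.48 in limma) and for Sox9, which was lower (-0.08, 0.31). The mean log2 level of the list was between 6.55 and 8.10 in old kidneys, against 6.196 to 6.27 in young ones, and replicate 3 held the 8.10. Of 12 macrophage markers 3 were higher in limma and 0 lower (25% called, against 6.72% of all genes). Their mean log2 level was between 7.12 and 8.25 at 96 weeks, against 6.80 to 6.92 at 14 weeks, and it was high in replicates 3 (8.12) and 4 (8.25). The mean of 12 measured kidney markers was between 10.04 and 10.40 at 96 weeks, against 10.19 to 10.25 at 14 weeks. Of these 0 passed (2 at an unadjusted p under 0.05, against 28.5% of all genes), with the low means in replicates 3 (10.04) and 4 (10.05). The mean of 8 T cell and NK cell markers was between 5.16 and 6.67 at 96 weeks, against 5.25 to 5.32 at 14 weeks, and was highest in replicate 4, where the mean deviation of the 10 immediate early genes was -0.10. B cell and plasma cell markers differed most, with 2 of 6 higher in limma and 0 lower (33.3% called, against 6.72% of all genes). Their median log2 fold change was 1.11, with a mean log2 level between 6.62 and 8.20 at 96 weeks, against 5.18 to 5.28 at 14 weeks. The highest of these means was in replicate 4 as well. The part of these cells and of injury in the values of the immediate early genes was not tested.

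The other AP-1 and related bZIP genes gave 1 higher and 1 lower of 14 measured (14.3% called, against 6.72% of all genes). Their median log2 fold change was -0.03. Batf2, a bZIP partner of JUN proteins, had log2 values of 6.21, 6.27, 6.34, 6.38 and 6.28 at 96 weeks, against 6.50, 6.58, 6.65 and 6.75 at 14 weeks, and fell by 0.32 (SE 0.061, adjusted p = 0.017 in limma). Atf4, the transcription factor of the integrated stress response, had 7.62, 7.49, 7.50, 7.67 and 7.58 at 96 weeks, against 7.27, 7.40, 7.18 and 7.08 at 14 weeks, and rose by 0.34 (SE 0.071, adjusted p = 0.022 in limma). For both genes the ages did not overlap. Atf4 did not pass without replicate 3 (adjusted p = 0.060 in limma) or 4 (0.061) at 14 weeks, nor without replicates 3 and 4 at 96 weeks together (0.054). Maf, a bZIP factor of the large MAF group, came next by p (-0.24, adjusted p = 0.095 in limma).

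Of the EGR family and partners, 0 were higher and 1 of 6 was lower (16.7% called, against 6.72% of all genes). Their median log2 fold change was -0.16, opposite in sign to Egr1. The gene that passed was Wt1, a zinc finger gene of podocytes, with log2 values of 7.17, 7.23, 6.90, 7.14 and 7.17 at 96 weeks, against 7.55, 7.55, 7.51 and 7.33 at 14 weeks. Wt1 fell by 0.37 (SE 0.077, adjusted p = 0.024 in limma), and the call was lost without replicate 1 (0.066), 2 (0.062) or 3 (0.062) at 14 weeks. Egr3 (-0.19, adjusted p = 0.10 in limma) and Egr4 (-0.20, 0.11) did not pass. Egr2, chosen after its values were seen, repeated the pattern of Egr1 with log2 values of 6.68, 6.33, 7.69, 6.45 and 6.16 at 96 weeks, against 6.15, 6.71, 6.29 and 5.98 at 14 weeks. Its log2 fold change was 0.38 (95% interval -0.24 to 1.00; adjusted p = 0.38 in limma), and replicate 3 at 96 weeks was the highest of all kidneys here too.

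Of the 50 other primary response genes measured (52 listed), 4 were higher and 1 was lower (10% called, against 6.72% of all genes). Their median log2 fold change was 0.04, while 20 had an unadjusted p under 0.05 (28.5% of all genes did). Ccn1 (Cyr61), a secreted matrix-associated protein, had log2 values of 9.54, 9.50, 10.16, 9.88 and 9.55 at 96 weeks, against 9.09, 9.29, 8.69 and 8.43 at 14 weeks. Ccn1 rose by 0.85 (SE 0.19, adjusted p = 0.030 in limma). Id2, an inhibitor of basic helix-loop-helix factors, had 10.48, 10.79, 10.93, 10.88 and 10.98 at 96 weeks, against 10.27, 10.44, 10.45 and 10.20 at 14 weeks, and rose by 0.48 (adjusted p = 0.025 in limma). All old kidneys were above all young ones for these genes. The nuclear receptor Nr4a1 had 6.94, 6.82, 7.02, 6.34 and 6.66 at 96 weeks, against 6.04, 6.49, 6.11 and 6.13 at 14 weeks, and rose by 0.56 (adjusted p = 0.042 in limma). The kinase Plk2 had 7.57, 7.85, 7.85, 7.91 and 7.49 at 96 weeks, against 6.87, 7.51, 7.17 and 7.35 at 14 weeks, and rose by 0.51 (adjusted p = 0.048 in limma). Klf9, a zinc finger gene that glucocorticoids induce, fell by 0.44 (adjusted p = 0.042 in limma). For Nr4a1, Plk2 and Klf9 the ages overlapped through 1 old kidney each. When each array was left out in turn, Nr4a1 kept its call only without replicate 2 at 14 weeks or 4 at 96 weeks (adjusted p up to 0.11 in limma otherwise), Plk2 only without replicate 2 at 14 weeks or 5 at 96 weeks (up to 0.10) and Klf9 only without replicate 1 at 96 weeks (up to 0.11). Id2 lost it without replicate 1 (0.067) or 4 (0.078) at 14 weeks and without replicate 2 (0.050) or 5 (0.052) at 96 weeks. Ccn1 lost it without replicate 3 (0.076) or 4 (0.079) at 14 weeks and without replicate 4 at 96 weeks (0.054).

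Among 25 measured kinases and transcription factors that induce the immediate early genes (32 listed), 5 were higher and 0 were lower (20% called, against 6.72% of all genes). The median log2 fold change was 0.06. All 5 were MAP kinase pathway enzymes. Mapkapk2, the kinase below p38 that phosphorylates tristetraprolin, had log2 values of 8.70, 8.74, 8.71, 8.70 and 8.71 at 96 weeks, against 8.22, 8.28, 8.25 and 8.39 at 14 weeks. Both ages were tight and far apart, and Mapkapk2 rose by 0.43 (SE 0.048, adjusted p = 0.0029 in limma). It passed under all 19 alternatives. The related kinase Mapkapk3 rose by 0.28 (adjusted p = 0.041 in limma). The p38 activator Map2k3 rose by 0.27 (0.023), and Map2k1 and Map2k2, the MEK kinases above ERK, by 0.24 (0.045) and 0.34 (0.021). The p38 activator Map2k6, chosen after its value was seen, was just outside the threshold in the opposite direction (-0.32, adjusted p = 0.0502 in limma). With each array left out in turn, the count of these calls was between 1, without replicate 1 or 4 at 14 weeks, and 5. It was 2 without replicate 2 or 3 at 14 weeks and 3 without replicate 1, 4 or 5 at 96 weeks. After a repeated quantile normalization 2 were higher and 1 was lower.

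**Figure D4:**
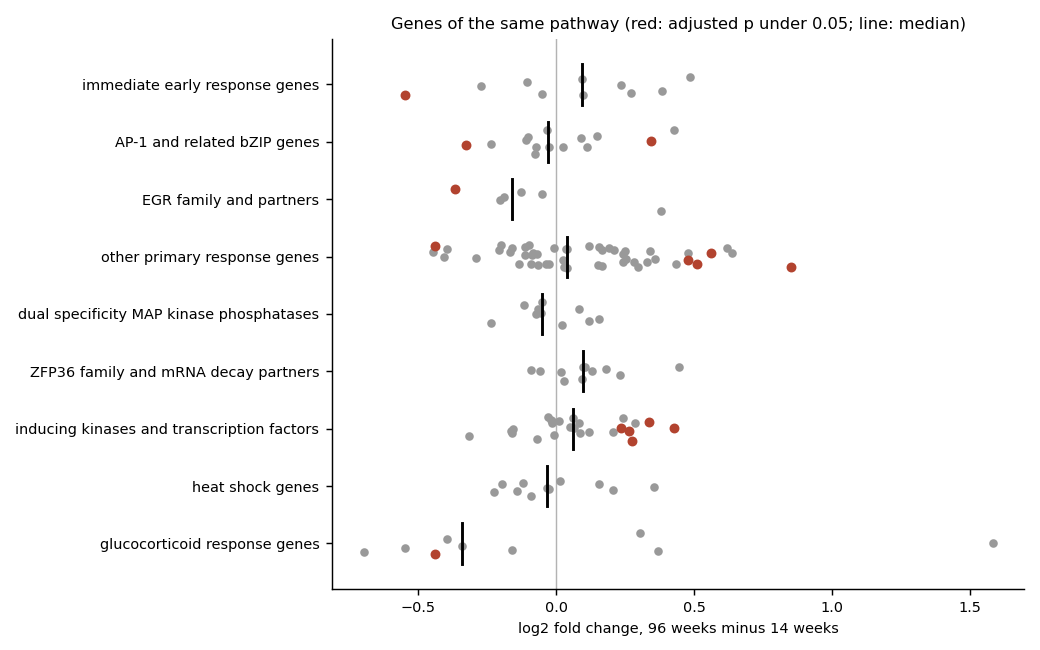
Log2 fold change, 96 weeks minus 14 weeks, for the 10 immediate early genes and the measured genes of the lists around them (points, red where the adjusted p in limma was under 0.05), with the median of each list as a black line. The 5 red points of the kinases and transcription factors lie right of 0, and the glucocorticoid response genes have the lowest median (-0.34).

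Genes that act beside Dusp1 and Zfp36 gave no call. Of 10 other dual specificity phosphatases 0 passed in limma (1 at an unadjusted p under 0.05, against 28.5% of all genes). By the methods' t-test 0 had an adjusted p under 0.05, and the median log2 fold change was -0.05. The smallest p values were those of Dusp7 (-0.23, adjusted p = 0.074 in limma), Dusp6 (0.15, 0.23) and Dusp14 (-0.07, 0.30), and Dusp7 passed without replicate 2 at 14 weeks (0.045). Of the 11 genes of the ZFP36 family and of mRNA decay 0 passed in limma (3 at an unadjusted p under 0.05, against 28.5% of all genes), with a median of 0.10. The 3 were Zfp36l1 (0.44, adjusted p = 0.081 in limma), a paralog of Zfp36, Elavl1 (0.23, 0.086), whose product HuR stabilises mRNAs with AU-rich elements, and Cnot8 (0.18, 0.16), a deadenylase. Zfp36l1 had log2 values of 8.43, 8.46, 9.11, 8.53 and 8.89 at 96 weeks, against 8.06, 8.35, 8.24 and 8.31 at 14 weeks. All old kidneys were above all young ones for Zfp36l1, the opposite order to that of Zfp36. With array weights Zfp36l1 passed (0.51, adjusted p = 0.044 in limma).

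Glucocorticoids induce Dusp1 and Zfp36 as well, and genes of that response had the lowest median of the lists, -0.34 over 9 measured genes, against -0.03 over all genes. Of these, 0 were higher and 1, Klf9, was lower in limma (11.1% called, against 6.72% of all genes). At an unadjusted p under 0.05 there were 6 of the 9, against 28.5% of all genes, and Lcn2, which was higher, was among them. Klf9, which is on the primary response list too, had log2 values of 8.59, 8.33, 8.14, 8.02 and 8.04 at 96 weeks, against 8.66, 8.59, 8.65 and 8.75 at 14 weeks. Zbtb16, a zinc finger gene, had 7.33, 7.45, 7.196, 7.22 and 7.25 at 96 weeks, against 8.05, 7.26, 8.62 and 8.02 at 14 weeks. Replicate 2 at 14 weeks was level with the old kidneys for Zbtb16, and without it the log2 fold change was -0.94 (-0.70 with it, adjusted p = 0.074 in limma) and passed (0.014). Fkbp5, an immunophilin that binds the glucocorticoid receptor complex, had 7.48, 6.999, 6.90, 7.28 and 7.30 at 96 weeks, against 8.02, 6.88, 8.26 and 7.80 at 14 weeks, with the same young kidney low. Fkbp5 (-0.55, adjusted p = 0.17 in limma), Tsc22d3 (-0.34, 0.095) and the clock gene Per1 (-0.39, 0.13) were chosen after their values were seen and did not pass. Lcn2, which is on the tubular injury list as well, went the other way (1.58, adjusted p = 0.079 in limma), and it passed without replicate 3 at 96 weeks (1.08, 0.0091). Mt1 (0.37, adjusted p = 0.20 in limma) and Mt2 (0.30, 0.38), named after their values were seen, were also higher and did not pass. Thus 3 of the 9 were above 0, and the list did not share a direction. The part of these hormones in the values of Zfp36 and Dusp1 was not tested.

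The 11 measured heat shock genes, which mark protein stress, did not share a direction. In limma 0 passed (5 of 11 at an unadjusted p under 0.05, against 28.5% of all genes), with a median log2 fold change of -0.03. Hspb1, a small heat shock protein, had log2 values of 7.80, 7.87, 8.27, 7.85 and 7.85 at 96 weeks, against 7.51, 7.54, 7.71 and 7.53 at 14 weeks. Old kidneys were above all young ones, and the log2 fold change was 0.35 (adjusted p = 0.054 in limma), or 0.27 and past the threshold without replicate 3 at 96 weeks (0.034). Hspa5, the chaperone of the endoplasmic reticulum, differed by 0.21 (adjusted p = 0.073 in limma) and passed without replicate 3 at 14 weeks (0.046). The stress-induced Hspa1a stood at -0.22 (adjusted p = 0.078 in limma), with old kidneys between 7.67 and 7.97 and young ones between 7.92 and 8.16.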

How the data were processed

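The authors ran RMA with quantile normalization on the scans of the 9 arrays (Affymetrix Power Tools 1.12.0, per the methods), and the deposited values are log2 expression per probe set, used here without further scaling. Of 35557 probe sets, 21789 had 1 gene symbol in the platform annotation, 1621 several and 12147 none. Probe sets with 1 symbol were kept, and for 999 genes with several the brightest on average stood for the gene, which left 19938 genes. The comparison of the ages used lmFit and eBayes of limma 3.58.1 under R 4.3.3, without covariates, with Benjamini-Hochberg adjustment of p-values across the 19938 genes. The scripts were tested on simulated data. Exact permutation tests of single genes and the figures used Python 3.11.15, scipy 1.17.1, numpy 2.4.6 and matplotlib 3.10.9. Detection calls were not used here, so a dim gene cannot be told from an absent one, and precision is limited by how few arrays there were. Although the methods speak of 5 mice per age, 9 arrays had an age label and were used, mapped by their titles. No arrays held the same values (correlations between 0.982 and 0.9967). Scan dates are not given in the sources used here.

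The 10 genes, the lists around them and the tests were chosen with earlier results of these data known. Named from each list were the genes with an adjusted p under 0.05 and, where fewer than 3 passed, the 3 with the smallest p. Genes most alike were the 10 with the highest Pearson r to the mean deviation of the 10 genes from their age means. Alternatives were the methods' t-test, array weights, a filter below the 30th percentile, repeated quantile normalization, centring, other choices of probe sets, a trended robust variance, a block on the replicate number and the omission of each array in turn. For the t-test the p-values were adjusted, whereas the methods used 1.5-fold and an unadjusted p under 0.05. Promoter sequences and gene positions are from RefSeq (GRCm38.p6). For the array annotation the build is not given in the sources used here.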

Additional observations from a re-analysis of the deposited data

Results flagged for a closer look

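Of 74 group values over 37 named genes, 9 held a highest or lowest kidney that stood far from the rest of its group by Dixon's test, which chance gives in about 1 of 20 groups. Among the 10 immediate early genes these were the log2 values of Fosb in replicate 5 at 96 weeks (5.37, the lowest), Junb in replicate 3 at 96 weeks (6.13, the highest), Ier3 in replicate 1 at 96 weeks (9.39, the highest) and Jun in replicate 3 at 14 weeks (7.41, the lowest). For Jun the other 3 young kidneys held an identical value, and for Junb 3 of the other 4 old kidneys did. Among the genes around them, replicate 3 at 96 weeks was the lowest for Wt1 (6.90) and the highest for Hspb1 (8.27) and Lcn2 (9.68). Replicate 5 at 96 weeks was the lowest for Egr4 (5.88), and replicate 3 at 14 weeks was the highest for Hspb1 (7.71). The values of replicate 3 at 96 weeks for Fos, Jun, Egr1 and Atf3 did not stand apart by this test, since the other old kidneys were spread as well.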

How the results depend on the processing

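Limits come from 9 arrays, a single tissue sample per mouse and dim probe sets such as that of Fosb, which has no value under the filter. Of 702 values of 37 named genes under up to 19 alternatives, 590 kept their direction and side of the threshold, 91 kept only the direction and lost the call, 14 gained it and 7 changed sign, all 7 among Fos and Ier2. With each array left out Fos was -0.056 to 0.17, below 0 only when replicate 3 at 96 weeks was omitted, and it was -0.073 when replicate 4 was omitted as well, an alternative chosen after seeing the data. Ier2 was 0.016 with the replicate block and 0.016 after quantile normalization was repeated. With each array left out it was -0.13 to 0.039. It was above 0 without replicate 2 at 14 weeks (0.039) and without replicate 4 (0.037) or 5 (0.016) at 96 weeks. Replicate 5 at 96 weeks has no young array of its number, so the fold change with the block is the one without that array.

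Counts of calls moved more. The methods' t-test was read here at an adjusted p under 0.05 without a fold limit, unlike in the methods. Over all genes it called 367 genes, the replicate block 368 and leaving out each array 528 to 1135, against 1339. The 1339 were 860 higher and 479 lower, and after repeated quantile normalization 484 were higher and 505 lower. The methods' t-test called 0 of the 10 immediate early genes, 1 AP-1 related gene, 0 EGR genes, 0 other primary response genes, 2 kinases and 0 glucocorticoid response genes. The replicate block called 0 AP-1 related genes, 0 EGR genes, 1 other primary response gene, 2 kinases and 0 glucocorticoid response genes. Repeated quantile normalization called 3 kinases. Heat shock genes gave 1 call with array weights, 1 with the dim filter, 1 after repeated quantile normalization, 1 after centring and 1 with the trended robust variance. Array weights called 1 gene of the ZFP36 list. Without replicates 3 and 4 at 96 weeks there was 1 AP-1 related gene, and 2 other primary response genes passed. Leaving out each array gave 0 to 1 of the 10 genes (1 to 2 at an exact permutation p under 0.05), 1 to 2 AP-1 related, 0 to 1 EGR, 0 to 5 other primary response, 0 to 1 dual specificity phosphatase, 1 to 5 kinase, 0 to 1 heat shock and 0 to 2 glucocorticoid response genes. At an adjusted p under 0.05 that 1 of the 10 was Ier3 without replicate 2 at 14 weeks, and otherwise Zfp36. At 1.5-fold and an unadjusted p under 0.05 the main fit gave 0 of the 10 genes. Array weights gave 1, the replicate block 1, repeated quantile normalization 1 and the omission of replicates 3 and 4 at 96 weeks 1. With each array left out it was 0 to 1 (1 without replicate 4 at 14 weeks or 1, 3 or 5 at 96 weeks). The gene was not always the same. With the block and without replicate 5 at 96 weeks it was Atf3 (log2 fold change 0.63), while Zfp36 was -0.46. The cause of these changes was not tested. Replicate numbers were not taken to pair the mice. Same-numbered arrays had deviations with correlations of 0.076, 0.021, -0.037 and 0.012, and the 0.076 was the highest of any old and young array. Correlations this small do not show whether the numbers pair the mice. Zfp36 still passed with the block (-0.46, adjusted p = 0.046 in limma). Only the 96 week group had a replicate 5, so the block gave that array no weight in the difference between the ages. The fold change with the block is therefore the one without replicate 5 at 96 weeks, and not a separate check.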
